A study of Mus musculus with 24 samples.

Results

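The RNAs described here are long noncoding RNAs, chosen as the genes that the deposited expression table types as lincRNA and that reached 1 RPKM (reads per kilobase of transcript, scaled to the mapped reads of the library) in at least 3 of 24 libraries. Of 2632 lincRNA genes in a table of 40750 genes, 234 (8.89%) met that threshold, and 1315 were at 0 in every library. The members were chosen by their level, and 57 of them were over the threshold in all 24 libraries while 20 were over it in exactly 3. At the edge, the third-highest values were 1.0 RPKM for A930029G22Rik, 1.0 for AA543186 and 1.01 for Gm26690 just inside, and 0.989 for Gm26617, 0.987 for Platr22 and 0.982 for E130018N17Rik just outside. No member passed through the libraries of 1 group alone, but 4 (1110002J07Rik, Gm14010, Gm26809 and Mirt1) passed only through day 2 libraries, so for these the choice itself used the day 2 level. Another 13 passed only through unbound and 4 only through bound libraries, so for these it used the level in 1 fraction.

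All libraries came from male mice of mixed background, aged 8 to 10 weeks and heterozygous for both Kim1-GCE and EGFPL10a. Kim1-GCE is a tamoxifen-inducible Cre allele at Havcr1, the gene for kidney injury molecule 1, and EGFPL10a is a GFP-tagged protein of the large ribosomal subunit that recombined cells make, so the tag marks cells in which the allele was active around the tamoxifen doses. Every mouse received tamoxifen 6 hours before and 24 hours after surgery, which was clamping of both renal pedicles for 20 minutes followed by reperfusion, or a sham operation without clamping. Kidneys of 3 mice per group were taken from sham mice and at days 2, 7 and 14 after injury, and each kidney homogenate gave RNA held by anti-GFP beads (bound) and the remainder (unbound, which the labels call total kidney), for 12 mice and 24 libraries. The labels give no day for the sham kidneys, and libraries from mice without the tag were not analysed here.

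The pull-down, called TRAP, recovers RNA attached to tagged ribosomes. Protein-coding messengers are loaded with ribosomes, nuclear RNAs such as Malat1 and Neat1 do not normally meet them, and many cytoplasmic noncoding RNAs are bound by ribosomes even though they encode no long protein. Among noncoding genes, host genes carry small nucleolar RNAs in their introns and leave a spliced transcript that is often translated and quickly decayed, while many others start beside a coding gene and run away from it.

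Read depth, inferred from the smallest step between values, was 15.7 to 24.6 M reads per library. Havcr1, the gene that drives the tag, was at 1.51, 1.49 and 5.61 RPKM in sham bound libraries and at 50.5, 113 and 211 in day 2 bound libraries. Sham bound RNA was not enriched for proximal tubule markers. The summed level of 12 proximal tubule markers was 6789 to 13210 RPKM in it against 17817 to 31542 in sham unbound RNA, and all 6 podocyte markers were higher in it (70.5 to 211 against 19.4 to 27.0 RPKM summed). The third day 14 mouse stood apart, with correlations over all tested genes of 0.893 to 0.897 with the other bound libraries of its group against 0.975 between those.

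Most members were scarce. Their median level over the 24 libraries was 1.61 RPKM against 5.59 for all 13721 genes that passed the same threshold, 79 members had a mean under 1 RPKM and 28 had a mean of 10 or more. Gm42418, a locus on chromosome 17 that holds ribosomal RNA sequence, had the highest mean (6849 RPKM), followed by Malat1 (989). Without Gm42418 the members made up 0.338 to 1.10% of the summed RPKM per library.

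In the GENCODE M21 annotation (GRCm38), 230 members were found by their Ensembl identifiers, 189 of them typed lincRNA, 18 antisense and 14 bidirectional promoter RNA. Of the members, 51 started within 1000 bases of the start of a coding gene that runs the opposite way. For 66 members an exon overlapped an exon of another gene on the opposite strand, and for 16 on the same strand; no source used here says whether reads were counted by strand, so reads of such a pair may have been shared.

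The windows around 7 member starts are printed because they belong to members that rose after injury: the first 5 hold a match to TGANTCA, a loose form of the letters bound by AP-1 (a dimer of Fos and Jun proteins made soon after stress), and the last pair, of the member with the largest rise at day 2 and of one called at every day, hold none. Each runs from 250 bases before to 50 bases after the RefSeq start, 5′ to 3′ on the strand of the gene, from GRCm38.p6. Capitals mark the match. The 5 windows with a match are all those found among members called higher at day 2 in bound RNA. Windows without a match were not all printed, so the choice of windows also used the match.

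Mirt1: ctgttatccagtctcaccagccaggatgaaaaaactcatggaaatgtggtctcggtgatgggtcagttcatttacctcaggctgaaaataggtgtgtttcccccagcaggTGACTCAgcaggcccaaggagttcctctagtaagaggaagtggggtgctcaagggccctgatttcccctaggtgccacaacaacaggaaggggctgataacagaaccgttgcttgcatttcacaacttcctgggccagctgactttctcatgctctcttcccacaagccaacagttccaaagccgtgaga

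1110002J07Rik: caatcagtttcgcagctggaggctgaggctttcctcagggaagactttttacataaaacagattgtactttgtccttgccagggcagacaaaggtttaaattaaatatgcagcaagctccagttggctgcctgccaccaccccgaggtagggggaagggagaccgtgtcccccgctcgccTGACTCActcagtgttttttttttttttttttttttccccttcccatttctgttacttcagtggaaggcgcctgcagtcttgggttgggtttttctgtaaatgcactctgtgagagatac

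3300005D01Rik: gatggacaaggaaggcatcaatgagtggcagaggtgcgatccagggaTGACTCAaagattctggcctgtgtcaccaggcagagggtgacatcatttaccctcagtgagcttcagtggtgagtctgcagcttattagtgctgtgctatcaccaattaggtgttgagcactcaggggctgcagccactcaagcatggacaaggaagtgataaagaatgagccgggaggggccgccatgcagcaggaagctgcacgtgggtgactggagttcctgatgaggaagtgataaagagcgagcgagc

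E230001N04Rik: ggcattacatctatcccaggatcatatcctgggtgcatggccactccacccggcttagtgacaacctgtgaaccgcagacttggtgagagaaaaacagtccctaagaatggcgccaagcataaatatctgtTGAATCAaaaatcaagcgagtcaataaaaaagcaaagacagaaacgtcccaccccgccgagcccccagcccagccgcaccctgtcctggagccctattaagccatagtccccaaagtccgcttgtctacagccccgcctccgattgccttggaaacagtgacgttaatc

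2310043M15Rik: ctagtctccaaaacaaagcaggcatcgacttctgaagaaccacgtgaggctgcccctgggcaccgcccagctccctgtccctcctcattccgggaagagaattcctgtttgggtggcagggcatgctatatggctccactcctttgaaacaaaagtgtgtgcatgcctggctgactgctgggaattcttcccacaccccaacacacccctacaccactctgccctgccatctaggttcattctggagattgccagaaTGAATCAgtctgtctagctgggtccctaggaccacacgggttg

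Lockd: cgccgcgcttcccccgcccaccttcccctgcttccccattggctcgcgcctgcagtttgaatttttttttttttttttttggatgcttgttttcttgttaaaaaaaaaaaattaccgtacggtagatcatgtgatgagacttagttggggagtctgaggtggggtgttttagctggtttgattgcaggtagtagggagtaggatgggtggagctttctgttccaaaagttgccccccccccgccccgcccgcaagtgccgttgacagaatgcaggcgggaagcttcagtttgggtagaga

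A330069E16Rik: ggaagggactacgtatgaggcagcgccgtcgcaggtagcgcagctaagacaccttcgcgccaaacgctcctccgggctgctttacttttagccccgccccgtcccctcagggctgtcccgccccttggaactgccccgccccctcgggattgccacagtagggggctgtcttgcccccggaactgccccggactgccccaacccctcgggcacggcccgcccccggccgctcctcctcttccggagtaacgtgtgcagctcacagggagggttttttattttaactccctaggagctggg

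The windows lie at chr19:53464747-53465046 (minus strand) for Mirt1, chr10:66920335-66920634 (minus strand) for 1110002J07Rik, chr17:5798407-5798706 (plus strand) for 3300005D01Rik, chr17:28522406-28522705 (plus strand) for E230001N04Rik, chr16:93794852-93795151 (minus strand) for 2310043M15Rik, chr6:134928842-134929141 (plus strand) for Lockd and chr2:91236896-91237195 (plus strand) for A330069E16Rik. The match began 140 bases before the start in Mirt1, 70 before it in 1110002J07Rik, 203 before it in 3300005D01Rik, 119 before it in E230001N04Rik and 7 bases after it in 2310043M15Rik. RefSeq windows were found for 134 of the 234 members, and 13 of those (9.70%) held the motif on either strand, against 7.81% of all 32851 windows. For 100 of the 134 the RefSeq start lay within 100 bases of the M21 start, and the other windows lay further from it. Of the 15 members called higher at day 2 in bound RNA, 9 had a window and 5 of these held the motif. Among members called lower at day 2 it stood in 1 of 6 windows for bound and 5 of 24 (20.8%) for unbound RNA. Among members called higher in bound RNA it stood in 1 of 24 windows (4.17%) at day 7 and in 1 of 13 (7.69%) at day 14. For the day 14 hit, 4732465J04Rik, the RefSeq start lay 27056 bases from the M21 start. For Gm4208, counted among the lower members of both fractions at day 2, the RefSeq start lay 5755 bases away. Among the printed windows with a match, it lay 126 bases away for 1110002J07Rik and 64 for E230001N04Rik. It lay 0 bases away for Mirt1, 3300005D01Rik and 2310043M15Rik. Among the 5 members with a match that were called higher at day 2 in bound RNA, Mirt1 and 1110002J07Rik reached the expression threshold in day 2 libraries only. The day 2 bound calls of 3300005D01Rik, E230001N04Rik and 2310043M15Rik were each lost under at least 1 alternative. A match is only a run of letters, and no measurement of binding was used here.

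In sham kidneys, long noncoding RNAs were mostly scarcer in bound than in unbound RNA. limma called 65 members at an adjusted p below 0.05, 61 lower and 4 higher in bound RNA, which is 26.1% of the members lower and 1.71% higher. Over all tested genes 27.6% were called, 12.9% lower and 14.6% higher. Of the 61 lower calls, 2 (Gm11466 and Gm26534) were among the members that passed the threshold only in unbound libraries, and 0 of the 4 higher calls were among those that passed only in bound ones. The median log2 difference of the members was −0.56 and that of all tested genes 0.01. The difference was below 0 for 187 of 234 members. All log2 values here are differences of log2(RPKM + 0.5), which understate the change of scarce genes, and every adjusted p is from limma with Benjamini-Hochberg adjustment over all 13721 tested genes. With each of the 6 libraries left out in turn, 32 to 63 members were called.

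The medians of the other noncoding classes of the table were below 0 as well. The sham median was −0.59 for 243 antisense genes and −0.51 for 119 processed transcripts, against 0.06 for 12376 protein-coding genes. Members of higher level stood further down: the median was −1.13 for the 49 members with a mean of at least 5 RPKM, of which 24 were called lower, and −0.69 for the 106 between 1 and 5 RPKM, of which 31 were. Coding genes of the same levels had medians of −0.04 and 0.18. Below 1 RPKM the median of the 79 members was −0.26.

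The spread between sham mice was wide. The median bound minus unbound log2 difference of the members was −0.75, −0.64 and −0.31 in the 3 sham mice, −0.69, −0.10 and −0.07 in the day 2 mice, −0.33, −0.35 and −0.45 in the day 7 mice and −0.29, −0.25 and −0.40 in the day 14 mice. All 12 medians were below 0, while those of all tested genes lay between −0.10 and 0.15.

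**Figure D1:**
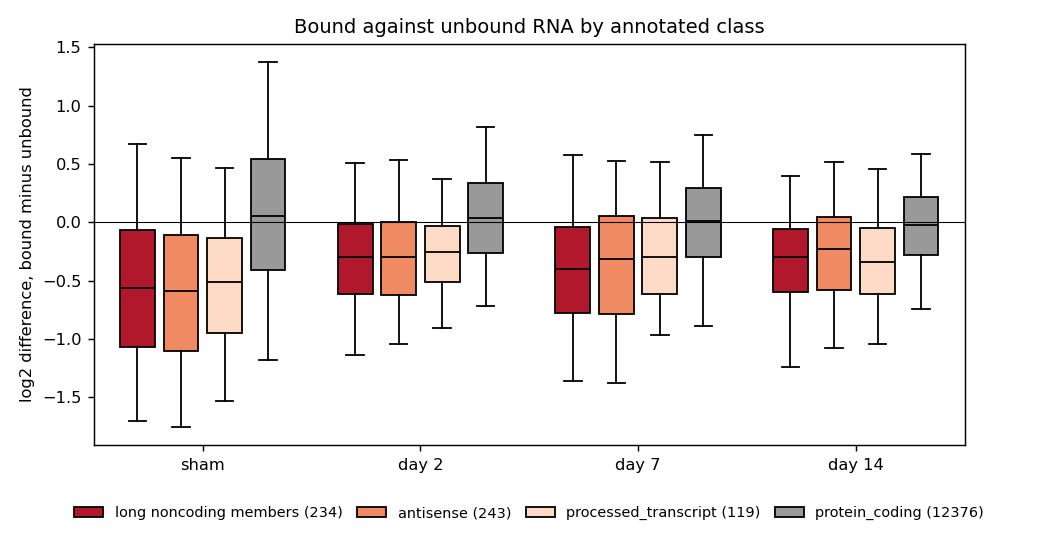
Bound minus unbound difference in log2(RPKM + 0.5) at sham and days 2, 7 and 14 for long noncoding members, antisense genes, processed transcripts and protein-coding genes, as median, quartiles and 5th to 95th percentiles. The member median lies at −0.56, −0.29, −0.40 and −0.30 and the protein-coding median between −0.02 and 0.06.

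After injury fewer single members passed the test although the medians stayed below 0. At day 2, 1 member was called, lower in bound RNA, beside 1.68% of all tested genes, 1.17% higher and 0.503% lower (28 members at an unadjusted p under 0.05). At day 7, 9 members were called, all lower, beside 2.35% of all tested genes (1.03% higher and 1.32% lower), and at day 14, 3 members, all lower, beside 0.816% of all tested genes (0.343% higher and 0.474% lower). The member medians were −0.29, −0.40 and −0.30, against medians of 0.01, −0.01 and −0.04 over all tested genes. The difference was below 0 at all 4 times for 114 members and above 0 at all 4 for 8. The same signs were not counted over all tested genes, so these counts have no background beside them. With the mouse as a block, since bound and unbound RNA came from the same animals, limma called 19 members at day 2 (16 lower), 38 at day 7 (35 lower) and 13 at day 14 (12 lower), beside 9.50%, 11.4% and 2.62% of all tested genes (5.24%, 4.28% and 0.794% higher and 4.26%, 7.11% and 1.82% lower). With single libraries left out and no block, the counts were 0 to 11, 1 to 3 and 0 to 14.

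Malat1, the most abundant of the nuclear-retained RNAs (chr19:5795690-5802672, minus strand, 1 exon), shows the difference in single mice. Its level in sham kidneys was 352, 264 and 175 RPKM in bound RNA and 850, 746 and 392 in unbound RNA. At day 7 it was 409, 492 and 275 RPKM in bound RNA and 1772, 2139 and 2017 in unbound RNA. Every bound library lay below every unbound one at both times. The log2 difference was −1.31 (SE 0.45, limma adjusted p = 0.035) in sham and −2.37 (SE 0.45, limma adjusted p = 0.0065) at day 7; the sham adjusted p was up to 0.14 over the alternatives and the day 7 adjusted p was 0.054 without the third bound library. At day 2 the difference was −1.12 (limma adjusted p = 0.197) and at day 14 −1.87 (limma adjusted p = 0.0532).

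Neat1, the scaffold RNA of nuclear paraspeckles, was at 3.17, 4.07 and 3.34 RPKM in day 7 bound RNA and at 9.88, 12.5 and 11.8 RPKM in day 7 unbound RNA. That difference of −1.56 (SE 0.35) had a limma adjusted p of 0.0203, and missed 0.05 (up to 0.097) when any 1 of the 6 libraries was left out. Between the fractions Neat1 was not called in sham or at days 2 and 14. Of the 11 nuclear-retained genes listed, 4 passed the expression threshold. Called lower in bound RNA were 2 of these in sham (Malat1 and Airn), beside 12.9% of all tested genes. At day 7 it was 2 (Malat1 and Neat1), beside 1.32% of all tested genes. The 3 tested genes of the mitochondrial genome, whose transcripts ribosomes of the cytoplasm do not read, were lower in bound RNA at all 4 times. Their medians were −2.31, −2.00, −2.98 and −2.68, and 12.9%, 0.503%, 1.32% and 0.474% of all tested genes were lower. The sham median was −0.96 for the 4 nuclear-retained genes, −1.13 for 15 tested hosts of small nucleolar RNAs and −1.26 for 12 proximal tubule markers. Whether contact with ribosomes had a part in any of these differences was not tested.

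The largest differences in sham kidneys were in little-studied RNAs. Gm27216 was at 12, 8.03 and 8.12 RPKM in bound and 60.7, 43.9 and 44.7 in unbound RNA, a log2 difference of −2.35 (SE 0.43, limma adjusted p = 0.000631). D630029K05Rik was at 23.4, 27.7 and 18.1 RPKM in bound and 86.1, 111 and 82.7 in unbound RNA (−2.00, SE 0.46, limma adjusted p = 0.00342). Gm29012 was at 1.77, 2.76 and 3.20 RPKM against 15.5, 14.9 and 14.1 (−2.35, SE 0.69, limma adjusted p = 0.0155). These 3 were named for groups that do not overlap, so their separation is a description.

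Gm29012 was not called without the first sham bound library (adjusted p = 0.058). 1810063I02Rik (−2.25), Gm26808 (−1.97) and Gm12962 (−1.97) were called as well. Proximal tubule markers moved the same way: 8 of 12 were lower in sham bound RNA, with a median of −1.26, and their part in the member differences was not tested. A smaller amount of an RNA in such a sample can mean fewer cells of a type or less RNA per cell, and these cannot be told apart.

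Of the 4 members called higher in sham bound RNA, 2810433D01Rik had the largest difference. It was at 2.96, 3.18 and 18.7 RPKM in bound and 0.644, 0.394 and 0.884 in unbound RNA (log2 2.48, SE 0.50, limma adjusted p = 0.00117). The third bound library was several times higher than the other pair. Aqp2, the water channel of collecting duct principal cells, was highest in the same library (39.2, 114 and 350 RPKM in sham bound RNA), and 3 of 5 tested principal cell markers were higher in sham bound than unbound RNA, with a median of 1.38; their part in this difference was not tested. 9530082P21Rik, whose exons overlap those of Kremen2 and Flywch1 on the opposite strand, was at 11.9, 18.3 and 13.1 against 7.66, 10.4 and 9.01 RPKM (0.64, SE 0.20, limma adjusted p = 0.0228), and its call was lost when any 1 of 3 libraries was left out.

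The question of change over time was asked within each fraction, against sham. The sham bound libraries enter every bound change and also the sham comparison of the fractions. Calls of a member in several of these are therefore not separate observations. Rescaling the libraries by median ratios moved the median of all genes by −0.16 to −0.22 in these comparisons, so splits into higher and lower are given on both scales where they differ.

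**Figure D2:**
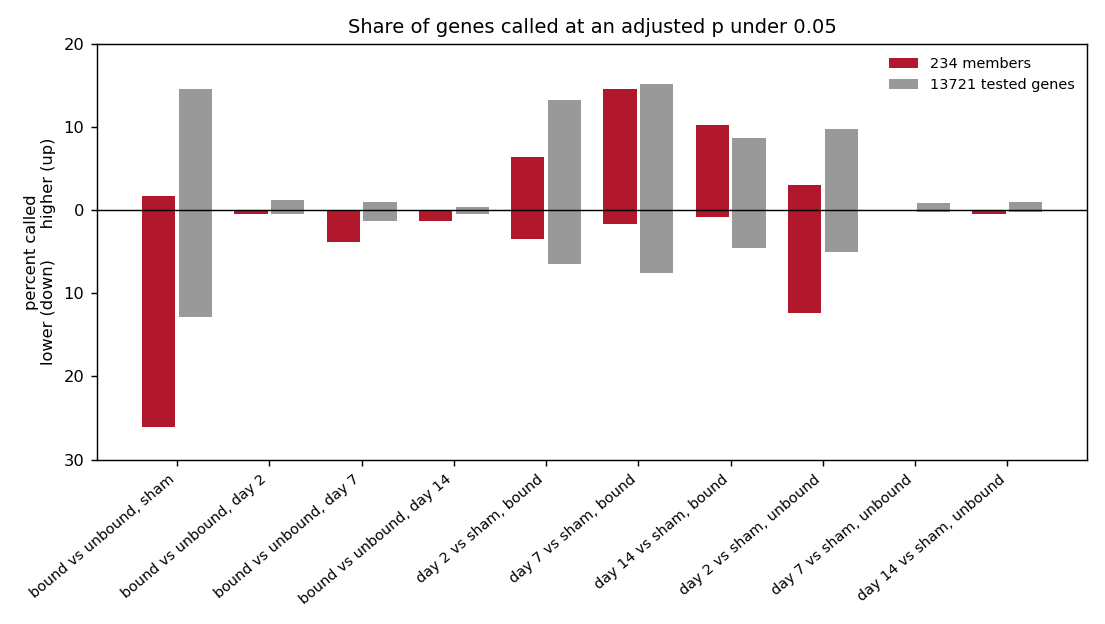
Percent of the 234 members and of all 13721 tested genes called higher and lower by limma in each comparison of 2 groups. Bars above 0 are higher and bars below 0 lower calls; the members' lower bar is about as long as the background's or longer in each bound against unbound comparison and in day 2 unbound RNA (26.1% against 12.9% in sham).

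At day 2 more members fell than rose in unbound RNA. limma called 36 members, 7 higher and 29 lower (7 and 37 after rescaling), beside 14.8% of all tested genes, 9.76% higher and 5.04% lower. The member median was −0.12 against 0.20 over all tested genes. In bound RNA 23 members were called, 15 higher and 8 lower, beside 19.8% of all tested genes, 13.3% higher and 6.48% lower; after rescaling the split was 13 to 13. The share of members called higher in bound RNA, 6.41%, lay below the background. With single libraries left out the counts ranged from 12 to 33 in unbound and from 13 to 42 in bound RNA.

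Lockd (chr6:134929092-134956798, plus strand, 3 exons), a noncoding RNA downstream of the cell cycle inhibitor gene Cdkn1b, rose most. In bound RNA it was at 1.72, 2.37 and 6.70 RPKM in sham and 26.8, 53.6 and 51.2 at day 2, then 21.9, 16.1 and 11.1 at day 7 and 9.10, 6.12 and 16.5 at day 14. In unbound RNA it was at 4.75, 5.57 and 24.0 in sham and 88.6, 89.1 and 39.8 at day 2. The day 2 values of both fractions were above every sham value. The log2 rise was 3.56 (SE 0.52, limma adjusted p = 7.29e-05) in bound and 2.90 (SE 0.52, limma adjusted p = 0.000726) in unbound RNA. At day 7 bound RNA was still higher by 2.18 (SE 0.52, limma adjusted p = 0.00547). The third sham mouse, which had the highest sham Lockd in both fractions, also had the highest sham Havcr1 (5.61 RPKM bound, 24.1 unbound).

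Mirt1, named for its induction after myocardial infarction, was nearly off in sham: 0.106, 0.0746 and 0.421 RPKM in bound and 0.131, 0.0933 and 0.0799 in unbound RNA. At day 2 it was at 1.11, 2.03 and 3.77 RPKM in bound and 1.04, 1.23 and 1.62 in unbound RNA, and at day 14 it was back to at most 0.498. The rise was 1.92 (SE 0.33, limma adjusted p = 0.00037) and 1.57 (SE 0.33, limma adjusted p = 0.00278). 1110002J07Rik had the same course, from at most 0.167 RPKM in sham to 1.42, 2.10 and 2.04 in bound and 1.97, 1.48 and 0.710 in unbound RNA at day 2 (log2 2.03 and 1.67). Both reached the expression threshold in day 2 libraries only, so a day 2 difference was built into their choice.

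3300005D01Rik was at 3.79, 3.65 and 2.00 RPKM in sham bound RNA and 6.88, 21.7 and 28.7 at day 2 (log2 2.25, SE 0.57, limma adjusted p = 0.00832). Its unbound values, 11.7, 11.7 and 5.44 in sham and 12.3, 35.7 and 17.8 at day 2, lay closer together and were not called. Without the third day 2 bound library the bound adjusted p was 0.057. E230001N04Rik, whose start lies 5193 bases from that of Fkbp5, rose from 0.659 to 0.824 RPKM to 1.49 to 2.92 in bound RNA (log2 1.01, SE 0.31, limma adjusted p = 0.0241; up to 0.13 over the alternatives, and lost without the first sham or the third day 2 bound library) and was at 1.81 to 2.55 in sham and 0.791 to 3.44 at day 2 in unbound RNA. E230001N04Rik, 1110002J07Rik, 2310043M15Rik and A330069E16Rik were picked after their values were seen, for their printed windows. Gm42418 was called at day 2 in bound RNA (4320, 7793 and 17921 RPKM against 2075, 4963 and 3174 in sham; adjusted p = 0.0478), but its adjusted p ranged up to 0.26 over the alternatives.

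Called higher at day 2 in both fractions were 1110002J07Rik, Gm26623, Lockd, Mirt1 and Snhg6, which are 33.3% of the 15 in bound and 71.4% of the 7 in unbound RNA; the fractions came from the same mice. Called lower in both were 2610035D17Rik, D630024D03Rik, Gm13412, Gm17597, Gm27202 and Gm4208, 75% of the 8 in bound and 20.7% of the 29 in unbound RNA. The overlap of calls over all tested genes was not counted, so these shares cannot be read as a trait of the members. Gm26623 lost both calls, and 2610035D17Rik, D630024D03Rik and Gm4208 their bound call, when any of several single libraries was left out.

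The largest falls called at day 2 were in unbound RNA. D630029K05Rik fell from 86.1, 111 and 82.7 RPKM in sham unbound RNA to 19.5, 8.71 and 22.0 at day 2 (log2 −2.53, SE 0.46, limma adjusted p = 0.000911); in bound RNA it was at 23.4, 27.7 and 18.1 and then 7.53, 9.62 and 13.1 (−1.17, limma adjusted p = 0.0794). Gm4208 was at 62.5, 54.7 and 35.7 RPKM in sham unbound RNA and 9.02, 0.730 and 4.48 at day 2 (−3.69, SE 0.74, limma adjusted p = 0.00196). Gm29012 went from 15.5, 14.9 and 14.1 to 2.60, 0.542 and 0.521 RPKM (−3.36, SE 0.69, limma adjusted p = 0.00253). These 3 were likewise named for groups that do not overlap.

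Gm27202 fell in both fractions under every alternative setting tried. It was at 5.53, 12.3 and 9.34 RPKM in sham bound and 4.15, 3.21 and 1.67 in day 2 bound RNA (−1.45, SE 0.31, limma adjusted p = 0.0025). Its unbound values were 9.81, 12.8 and 9.88 in sham and 1.72, 2.86 and 1.67 at day 2 (−2.15, SE 0.31, limma adjusted p = 7.52e-05). D630024D03Rik fell by 2.22 on the log2 scale in unbound RNA, a call kept under every alternative. Its bound fall of 1.44 was lost without the first or second sham or the third day 2 bound library and without the filter on low values (limma adjusted p up to 0.19). At day 2, 5 of the 12 proximal tubule markers were lower in each fraction (summed level 3669 to 10440 RPKM in bound and 7288 to 14895 in unbound RNA); their part in these falls was not tested.

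**Figure D3:**
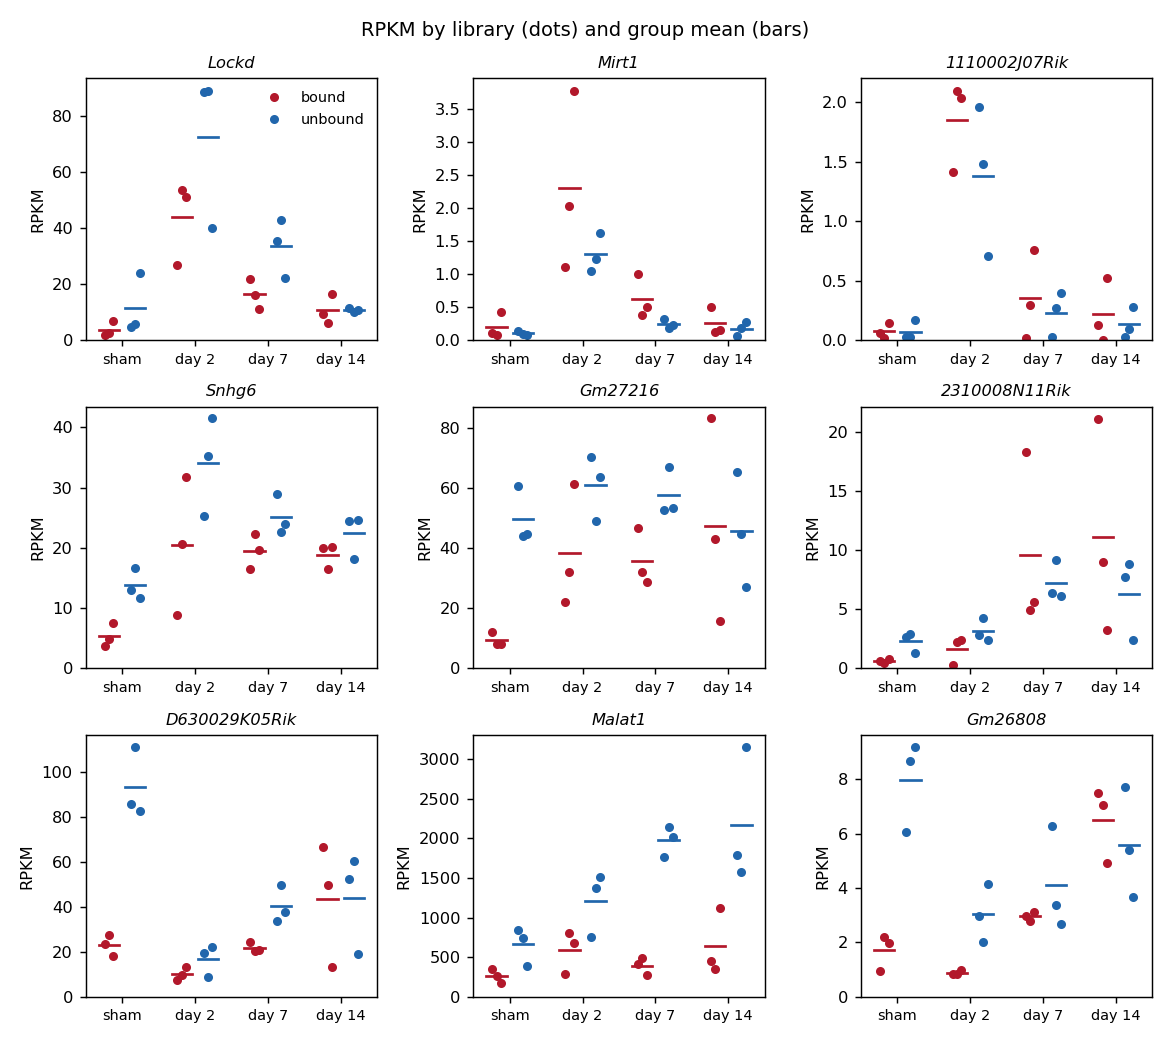
RPKM of 9 members in each of the 24 libraries, by time and fraction, on linear axes; dots are single mice and bars group means. Lockd and Mirt1 have their highest means at day 2 in both fractions, and the 3 sham bound libraries of Gm27216 lie between 8.03 and 12 RPKM, below its other 21 libraries.

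At days 7 and 14 most of the changes called were rises in bound RNA, by a margin that was smaller after rescaling. At day 7 limma called 38 members in bound RNA, 34 higher and 4 lower (26 and 12 after rescaling), beside 22.7% of all tested genes, 15.2% higher and 7.55% lower. At day 14 it called 26, 24 higher and 2 lower (15 and 6 after rescaling), beside 13.3% of all tested genes, 8.71% higher and 4.58% lower. The share of members called higher, 14.5% at day 7 and 10.3% at day 14, was close to the background at each time. With single libraries left out the counts ranged from 19 to 40 at day 7 and from 14 to 43 at day 14. The member medians were 0.23 and 0.41 against 0.13 and 0.18 over all tested genes. Without the third day 14 mouse 45 members were called at day 14, 37 higher and 8 lower. The share of all tested genes called without that mouse is not given here, so the larger count cannot be read as a trait of the members.

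In unbound RNA 0 members were called at day 7 by limma (30 at an unadjusted p under 0.05), beside 1.09% of all tested genes (0.911% higher and 0.182% lower). At day 14 the call was 1 member, Halr1, lower, beside 1.23% of all tested genes (0.984% higher and 0.248% lower). Halr1, which lies beside the Hoxa cluster, was at 19.7, 26.9 and 19.8 RPKM in sham and 10.9, 8.87 and 3.60 at day 14 in unbound RNA (−1.56, SE 0.38, limma adjusted p = 0.045), and its adjusted p was up to 0.44 over the alternatives. An F-test over the 4 times called 56 members in bound RNA, beside 27.0% of all tested genes, and 22 in unbound RNA, beside 9.82%. Of the 56, the highest group mean was at day 14 for 24, at day 7 for 20, at day 2 for 7 and in sham for 5. Of the 22, it was in sham for 11 and the lowest was at day 2 for 16. These times were read without rescaling and were not counted over all tested genes. They cannot be read as a trait of the members.

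Gm27216 was called higher in bound RNA at each day. It was at 12, 8.03 and 8.12 RPKM in sham, 22.2, 31.9 and 61.1 at day 2, 46.6, 31.9 and 28.8 at day 7 and 83.2, 43.1 and 15.8 at day 14. The log2 changes from sham were 1.88, 1.87 and 2.00. In unbound RNA it stayed between 26.9 and 70.4 RPKM in all 12 libraries, and no time was called. The lowest sham unbound library, 43.9 RPKM, was above all 3 sham bound libraries.

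A330069E16Rik, which starts 164 bases from the DNA damage recognition gene Ddb2 and runs away from it, was likewise called at each day in bound RNA. It was at 0.688, 1.46 and 1.87 RPKM in sham, 2.54, 2.78 and 4.82 at day 2, 2.60, 3.39 and 2.84 at day 7 and 4.33, 4.94 and 1.70 at day 14, where the third mouse fell within the sham range. The changes were 1.09, 0.96 and 1.13 (limma adjusted p = 0.0209, 0.0357 and 0.0246). All 3 calls were lost after rescaling and without the first sham bound library, and the adjusted p was up to 0.13, 0.19 and 0.15 over the alternatives. 2310043M15Rik, antisense to Dop1b, rose from 0.140, 0.0555 and 1.10 RPKM in sham bound RNA to 1.12, 1.55 and 2.31 at day 2 (1.34, SE 0.46, limma adjusted p = 0.0452), where the lowest value barely cleared the highest sham value, and the call was lost when any 1 of 4 libraries was left out (adjusted p up to 0.18).

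2310008N11Rik (chr8:26814593-26884380, minus strand, 10 exons) had the largest rise of the later days. In bound RNA it was at 0.614, 0.455 and 0.785 RPKM in sham, 18.3, 4.94 and 5.62 at day 7 and 21.1, 8.97 and 3.27 at day 14. In unbound RNA it was at 2.64, 2.93 and 1.31 in sham and at 6.36, 9.18 and 6.15 at day 7. The bound change was 2.95 (SE 0.58, limma adjusted p = 0.00172) at day 7 and 3.05 (SE 0.58, limma adjusted p = 0.00309) at day 14, and the unbound change at day 7 was 1.5 (limma adjusted p = 0.223).

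9130204K15Rik went from 0.834, 0.265 and 0.0555 RPKM in sham bound RNA to 4.90, 1.68 and 3.06 at day 7 and 11, 3.35 and 2.46 at day 14 (log2 2.07 and 2.62; limma adjusted p = 0.00498 and 0.0026). In unbound RNA it was at 2.69, 2.08 and 1.86 in sham and 4.56, 5.61 and 1.35 at day 14. 1110020A21Rik rose from 1.43, 1.21 and 1.85 RPKM in sham bound RNA to 8.16, 6.53 and 5.51 at day 14 (1.85, SE 0.27, limma adjusted p = 0.000465). 2700033N17Rik rose from 0.423, 0.896 and 0.281 to 3.25, 3.33 and 3.57 at day 7 (1.95, SE 0.37, limma adjusted p = 0.00129).

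The falls called at the later days in bound RNA included Gm28875, at 56.0, 173 and 68.3 RPKM in sham, 31.5, 27.6 and 38.6 at day 7 and 17.3, 32.2 and 20.8 at day 14. The changes were −1.42 (SE 0.38, limma adjusted p = 0.0105) and −1.92 (SE 0.38, limma adjusted p = 0.00347), and the day 7 call was lost without the second sham bound library (adjusted p = 0.081). Its unbound values stayed between 25.6 and 55.8 RPKM. 2810433D01Rik fell by 1.94 on the log2 scale at day 7 in bound RNA (limma adjusted p = 0.00853). Podocyte markers moved the same way, with 4 of 6 lower at day 7 in bound RNA and a summed level of 32.2 to 47.3 RPKM against 70.5 to 211 in sham. Of 5 tested principal cell markers 4 were lower at day 7 in bound RNA, with a median of −1.84; the summed level of the 6 listed was 44.6 to 81.8 RPKM against 98.9 to 883 in sham. The part of either marker list in these falls was not tested.

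**Figure D4:**
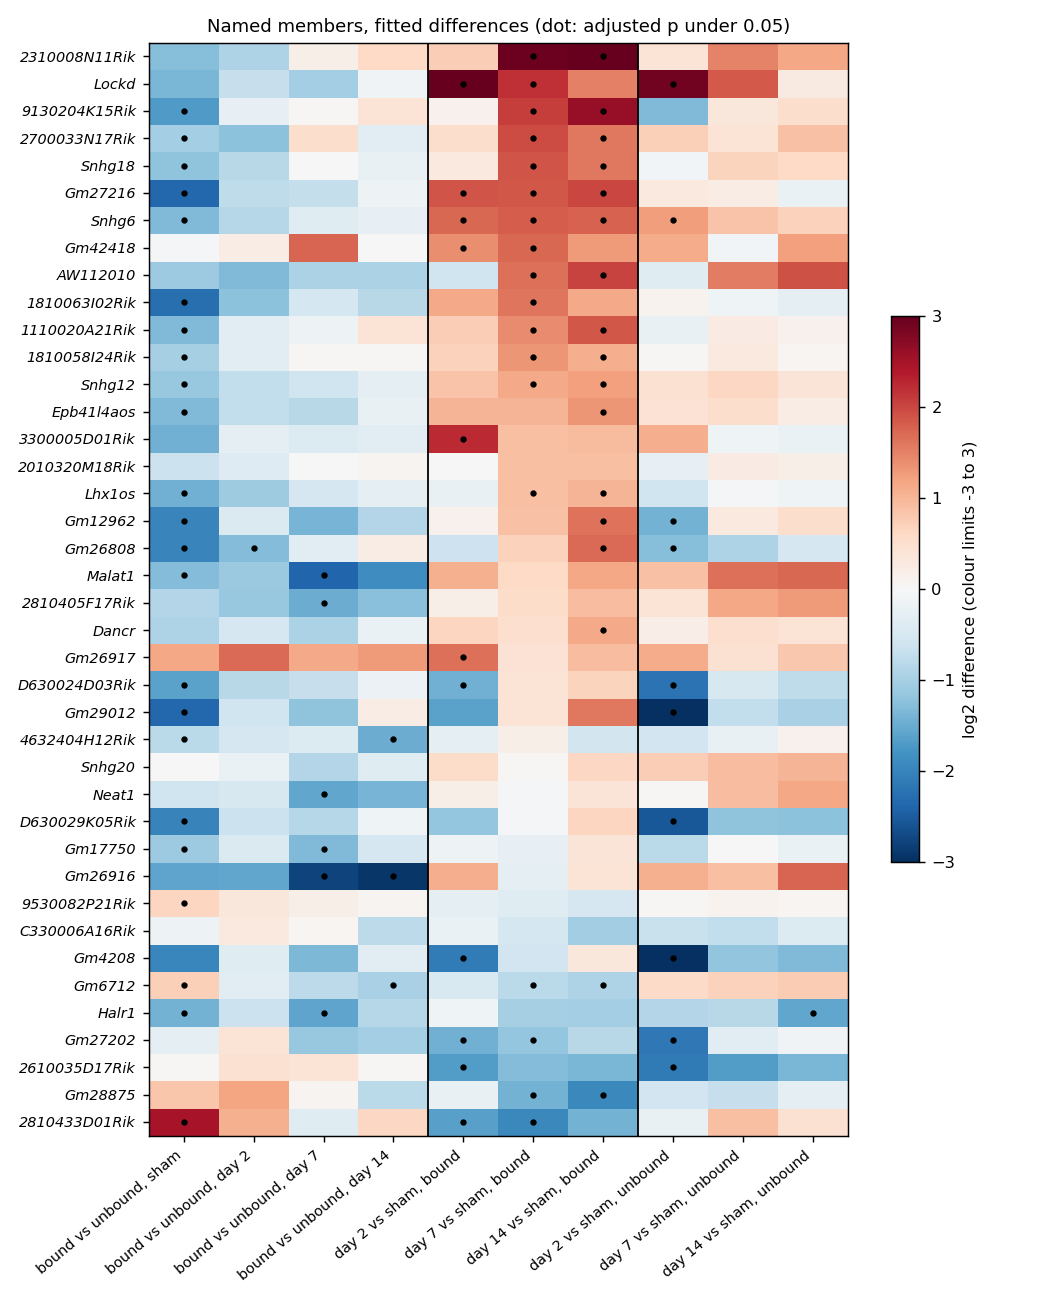
Fitted log2 differences of 40 named members (rows) in the 10 comparisons of 2 groups (columns), red above 0 and blue below it, with colours limited to −3 and 3; dots mark a limma adjusted p under 0.05. Gm27216 and Snhg6 have dots at sham (bound below unbound) and at each day in bound RNA, and Lockd is darkest at day 2 in both fractions. The same sham bound libraries enter the sham column and each bound change, so those dots are not separate observations.

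Among host genes of small nucleolar RNAs, the calls in sham were all lower in bound RNA and the later calls in bound RNA all higher. Of 20 listed, 15 were tested and 6 are members; the others carry another gene type in the table. In sham, 9 of the 15 were lower in bound than in unbound RNA and 0 were higher, with a median of −1.13 against 0.01 for all tested genes, of which 12.9% were lower and 14.6% higher. In bound RNA 4, 7 and 8 of the 15 were higher than sham at days 2, 7 and 14 and 0 were lower, with medians of 0.85, 1.15 and 1.24 against 0.16, 0.13 and 0.18 for all tested genes. Over all tested genes 13.3%, 15.2% and 8.71% were higher and 6.48%, 7.55% and 4.58% lower at these days in bound RNA. In unbound RNA 3 of the 15 were higher at day 2, beside 9.76% of all tested genes. At days 7 and 14 it was 0, beside 0.911% and 0.984%. The unbound medians of the hosts were 0.49, 0.66 and 0.57 against 0.20, 0.18 and 0.22 for all tested genes. The test of whether the change differed between the fractions, given below, called 0 of the 15 at each day, beside 0%, 0.146% and 0.197%. The sham bound libraries enter each of the bound comparisons, so the bound results are not separate observations.

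Snhg6 was the member host called most often. In bound RNA it was at 3.69, 4.89 and 7.47 RPKM in sham, 8.93, 20.6 and 31.8 at day 2, 16.4, 22.3 and 19.7 at day 7 and 20.0, 16.4 and 20.1 at day 14. In unbound RNA it was at 13.0, 16.7 and 11.7 in sham and 25.3, 35.3 and 41.5 at day 2. All later bound libraries were above all sham bound ones. The bound changes were 1.72 (SE 0.32, limma adjusted p = 0.00088), 1.81 (limma adjusted p = 0.000826) and 1.77 (limma adjusted p = 0.00233), and the unbound day 2 change was 1.26 (limma adjusted p = 0.0115; up to 0.059 over the alternatives).

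Snhg18 was at 26.3, 48.0 and 91.0 RPKM in sham bound RNA and at 159, 190 and 194 at day 7 (1.88, SE 0.36, limma adjusted p = 0.00129). At day 14 it was at 178, 172 and 102 RPKM (1.58, limma adjusted p = 0.00835; 0.053 without the first sham bound library). Snhg12 was higher at days 7 and 14 (1.15 and 1.24; limma adjusted p = 0.0481 and 0.0489), calls that most alternatives lost. Dancr (1.13) and Epb41l4aos (1.32) were higher at day 14 and also lost the call in most alternatives. Snhg20, at 0.905, 1.05 and 3.71 RPKM in sham bound RNA, was not called in any comparison of 2 groups.

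Some rows typed as noncoding are known to encode small proteins. 1810058I24Rik (chr6:35252654-35263496), which encodes a micropeptide of mitochondria, was at 34.5, 33.5 and 65.3 RPKM in sham bound RNA, 96.4, 107 and 116 at day 7 and 93.3, 99.8 and 78.6 at day 14. In sham unbound RNA it was at 85.8, 81.0 and 87.2 RPKM. The bound difference from unbound in sham was −0.99 (SE 0.25, limma adjusted p = 0.00536), and the rise was 1.32 (SE 0.25, limma adjusted p = 0.00114) at day 7 and 1.08 (limma adjusted p = 0.00824) at day 14. Its unbound level stayed between 81.0 and 112 RPKM.

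AW112010, an interferon-inducible RNA of immune cells with a translated reading frame, was at 1.30, 3.86 and 6.74 RPKM in sham bound RNA and 9.29, 8.10 and 46.1 at day 14. In unbound RNA it was at 6.45, 10.4 and 6.64 in sham and 20.3, 18.2 and 73.5 at day 14. The bound rise was 1.66 (SE 0.59, limma adjusted p = 0.0487) at day 7 and 2.04 (SE 0.59, limma adjusted p = 0.0282) at day 14. The day 7 call was lost without the first or second sham bound library, without any 1 of the 3 day 7 libraries, with a pseudocount of 1 and without the filter on low values (adjusted p up to 0.24). The day 14 call was lost without the first or second sham or the third day 14 bound library and without the filter (adjusted p up to 0.15). The summed level of 8 macrophage markers was 29.1 to 57.8 RPKM in sham bound, 162 to 259 in day 7 bound and 107 to 1763 in day 14 bound RNA, and its part was not tested.

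Mir155hg, the host of an inflammation-linked microRNA, was at most 0.728 RPKM in any bound library; it reached 1.36, 1.07 and 0.639 RPKM in day 2 unbound and 0.363, 0.565 and 3.84 RPKM in day 14 unbound RNA and was not called. Pvt1, a stress-linked RNA beside Myc, was at 0.268, 0.474 and 0.348 RPKM in sham bound and 1.04, 1.59 and 1.07 in day 7 bound RNA. Its rise was 1.0 (SE 0.25, limma adjusted p = 0.00763) at day 7 and 0.85 (limma adjusted p = 0.0306) at day 14; the day 14 call was lost without the first or second sham or the first day 14 bound library (adjusted p 0.051 to 0.11). Gas5, which is no member, was the other of the 5 tested stress-linked RNAs called higher at both days.

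Whether the change from sham differed between the fractions was tested by the interaction of fraction and time. limma called 0 members at day 2 (20 at an unadjusted p under 0.05) and 0 at day 7 (30 at an unadjusted p under 0.05), beside 0% and 0.146% of all tested genes (0.0583% larger and 0.0875% smaller in bound RNA at day 7). At day 14 it called 2, 1 in each direction, beside 0.197% of all tested genes (0.0875% with a larger and 0.109% with a smaller change in bound RNA). With the mouse as a block, which pairs the fractions of each animal, limma called 0, 8 and 13 members, beside 0%, 5.26% and 6.28% of all tested genes (2.43% larger and 2.83% smaller in bound RNA at day 7, 3.40% and 2.89% at day 14).

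The blocked calls included members described above. Gm27216 (1.65 and 2.20), 1110020A21Rik (1.17 and 1.73) and Gm26808 (1.63 and 2.20) had a larger change in bound RNA at days 7 and 14, and Gm6712 a smaller one (−1.51 and −1.70). At day 7 the change of 2810433D01Rik was smaller in bound RNA (−2.85). At day 14 that of 9130204K15Rik (2.10), D630024D03Rik (1.43), D630029K05Rik (1.86), Epb41l4aos (1.10) and Gm29012 (2.56) was larger and that of Gm28875 smaller (−1.64). Apart from Gm26808 and Gm6712 at day 14, these were not called without the block. For a member or day not among these, a call in 1 fraction and none in the other is not shown to be a difference between fractions.

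Gm26808 was at 0.954, 2.20 and 1.97 RPKM in sham bound RNA and 7.49, 7.06 and 4.94 at day 14, while unbound RNA went from 6.05, 8.67 and 9.20 to 7.71, 5.42 and 3.66. The interaction was 2.20 (SE 0.44, limma adjusted p = 0.0388). Its exons overlap those of Gm15446 on the opposite strand. Gm6712 moved the other way, from 2.20, 1.38 and 1.91 to 0.558, 0.641 and 0.976 RPKM in bound and from 0.959, 0.640 and 1.17 to 2.07, 1.87 and 1.75 in unbound RNA (interaction −1.70, SE 0.33, limma adjusted p = 0.0379). Both calls were lost without the filter on low values, and that of Gm26808 also after rescaling. With single libraries left out, Gm26808 kept its call only without the third sham or the third day 14 bound library. Gm6712 lost its call when any of several single libraries was left out. Over the alternatives the adjusted p values of Gm26808 and Gm6712 were up to 0.15 and 0.14.

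The coding gene with the nearest start was compared with each member. Over 190 pairs with both genes tested, Pearson's r of the log2 differences was 0.20 for bound against unbound RNA in sham, 0.14, 0.16 and 0.12 for days 2, 7 and 14 in bound RNA and 0.32, 0.31 and 0.32 in unbound RNA. The pairs share libraries and are not independent, so these are descriptions. For the 46 pairs that start within 1000 bases and run apart, r was −0.06 at day 2, 0.21 at day 7 and 0.25 at day 14 in bound RNA and 0.12, 0.31 and 0.44 in unbound RNA.

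Single pairs went both ways. Lhx1os starts 125 bases from Lhx1, a transcription factor of nephron development, and runs away from it. In bound RNA Lhx1os was at 22.6, 25.6 and 23.9 RPKM in sham and 46.9, 47.3 and 41.5 at day 7 (log2 0.90, SE 0.28, limma adjusted p = 0.0252), while Lhx1 changed by −1.02 (SE 0.29, limma adjusted p = 0.0165). In sham, Lhx1os was lower in bound than unbound RNA by −1.44 (limma adjusted p = 0.000919) and Lhx1 higher by 0.97 (limma adjusted p = 0.0173). The Lhx1os rise kept its sign but lost its call after rescaling (adjusted p = 0.10) and when any 1 of 5 of the 6 libraries was left out, all but the third sham one.

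Snhg18 and Sema5a, a guidance receptor gene that starts 148 bases away, rose together at day 7 in bound RNA (1.88 and 1.25; limma adjusted p for Sema5a = 0.0165). Mirt1 and Dusp5, a phosphatase gene that turns off ERK signalling and starts 64313 bases away, rose together at day 2, Dusp5 by 2.75 (limma adjusted p = 0.000139) in bound and 2.77 (limma adjusted p = 0.00016) in unbound RNA. For Lockd, Cdkn1b starts 8691 bases away on the same strand; its change at day 2 was 0.57 (SE 0.41, limma adjusted p = 0.341) in bound and 0.63 (SE 0.41, limma adjusted p = 0.309) in unbound RNA. D730003I15Rik, picked after its values were seen, lies 6415 bases from Atf3, a stress-induced transcription factor gene. At day 2 in unbound RNA D730003I15Rik fell from 14.7, 20.4 and 20.7 RPKM to 5.62, 6.05 and 8.15 (−1.43, SE 0.42, limma adjusted p = 0.0247; up to 0.093 over the alternatives, and lost when any 1 of 4 libraries was left out) while Atf3 rose by 1.95 (limma adjusted p = 0.0098).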

How the data were processed

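Values are RPKM, which the authors deposited as 1 table of 24 libraries; per the submitters' processing notes they used STAR 2.0.4b, featureCounts 1.4.5, Subread and edgeR, with the genome build, counting strand and annotation not given in the sources used here. Per the labels' protocols, libraries were made with a low-input RNA kit. The table held 41831 lines, of which 1081 were exact repeats and were removed. Groups came from the sample labels. The 13721 genes over the expression threshold (1 RPKM, 3 libraries) were fitted as log2(RPKM + 0.5) with limma 3.58.1 in R 4.3.3, on 8 group means with a trended prior and no block, with Benjamini-Hochberg adjustment over them. The test was tried on simulated data. RPKM are not counts; 77.6 to 81.1% of low values were whole multiples of 1 read's worth (within 0.02 reads, up to 20 reads; 4% by chance), so depth was inferred and no count test was run. For 37 members the median was under 10 reads per library.

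Bound and unbound libraries of the same number deviated together (r 0.27 to 0.67 in all 12 pairs, −0.60 to 0.31 otherwise). These ranges overlap, so r alone does not show that the numbers pair libraries of 1 mouse. They were taken to do so, and the results with the mouse as a block rest on that. Annotation came from GENCODE M21 and promoter windows from RefSeq, both matched by gene. Members and gene lists were chosen with earlier results of these data known. Named members were those with up to 6 largest rises and falls per comparison (groups not overlapping, at least 2 RPKM in the higher group), the 10 most abundant, the list members, and interaction calls; their nearest coding genes were also read. The miRNA host list held Mirt1, which is not a known host.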

Additional observations from a re-analysis of the deposited data

Results flagged for a closer look

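The change from sham to day 14 differed between bound and unbound RNA for 2 members by the interaction test. For Gm26808 the interaction was 2.20 on the log2 scale (limma adjusted p = 0.0388), with all 3 day 14 bound libraries above all sham bound libraries. For Gm6712 it was −1.70 (limma adjusted p = 0.0379). All 3 of its day 14 libraries lay below all sham libraries in bound RNA and above all of them in unbound RNA. Sham and day 14 libraries came from different mice. Gm6712 had a median of 14.5 reads per library and Gm26808 of 28.5, as inferred from the step between values. Both calls were lost without the filter on low values and when any of several single libraries was left out. That of Gm26808 was kept only without the third sham or the third day 14 bound library, and it was also lost after rescaling.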

How the results depend on the processing

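Counts are members called. The share of all tested genes is not given for each setting, so a larger or smaller count cannot be read as a trait of the members. Without the filter on low values they were 38 (sham), 0 (day 2), 4 (day 7) and 1 (day 14) for bound against unbound RNA, 13 at day 2 and 16 at day 14 in bound RNA, 0 at day 14 in unbound RNA, 0 for the day 14 interaction, and 33 and 12 for the bound and unbound F-tests. With a pseudocount of 0.1, bound against unbound RNA gave 2 at day 2 and 1 at day 14. Rescaling gave 5 for bound against unbound RNA at day 14 and 1 for the day 14 interaction.

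With the mouse as a replicate block, bound against unbound RNA gave 19, 38 and 13 at days 2, 7 and 14, and the interactions gave 8 at day 7 and 13 at day 14. Replicate numbers were not taken to pair mice across times (r −0.21 to 0.34 between sham and other days and −0.37 to 0.37 over all times; days 7 and 14, compared only through the F-test, had 0.13 to 0.17 in bound RNA); with the number as a block, days 2, 7 and 14 gave 11, 14 and 4 in bound RNA and 56, 2 and 12 in unbound RNA, and the F-tests 16 and 44. The block moved no other count by over 1.5 times.

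Leaving out each replicate in turn, bound against unbound RNA gave 32 to 63 in sham, 0 to 11 at day 2, 1 to 3 at day 7 and 0 to 14 at day 14. Days 2, 7 and 14 against sham gave 13 to 42, 19 to 40 and 14 to 43 in bound and 12 to 33, 0 to 1 and 0 to 4 in unbound RNA. The interactions gave 0 to 0, 0 to 4 and 0 to 23, and the F-tests 40 to 74 (bound) and 4 to 22 (unbound). Without the third day 14 mouse, chosen after seeing the data, day 14 gave 5 for bound against unbound RNA, 45 in bound and 0 in unbound RNA, 10 for the interaction and 37 for the unbound F-test. Of 114 calls of named members, 40 held under every alternative, and none reversed in sign. Many named members were chosen for called groups that do not overlap. For such groups neither leaving out a single library nor changing the pseudocount can reverse the sign, so the lack of reversals was largely fixed in advance. The 40 include the day 2 calls of Mirt1 and 1110002J07Rik, whose choice used the day 2 level. The causes were not tested. Values under about 10 reads limit what single scarce members can show.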
